A study of Mus musculus with 10 samples.

Results

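A set of 10 genes around the amyloid precursor protein was described in the hippocampus of amyloid-depositing mice that received irisin or a control protein through the circulation. They comprise 3 genes of the amyloid precursor family (App, Aplp1 and Aplp2), the BRI genes Itm2b and Itm2c, 4 adaptors of the App tail (Apbb1, Apbb2, Apba1 and Apba2) and the prion protein gene Prnp. The genes were chosen by symbol, and all 10 were found among the 31510 genes of the deposited table and among the 17556 genes tested. Libraries came from hippocampi of 10 male APP/PS1 mice injected in the tail vein at 8 months of age and examined 2 months later. An AAV8 vector for GFP was given to 5 mice (AAV8-GFP, the controls, called GFP mice), and a vector for irisin with a FLAG tag to the other 5 (AAV8-Irisin-FLAG, called irisin mice). Every animal carried the APP/PS1 transgenes, so neither group shows these genes without them. In this strain the mouse prion promoter drives the transgenes, among them one for a mutant amyloid precursor protein. The vector was given to make irisin in the liver and raise it in blood, so the hippocampus was not its target.

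The amyloid precursor protein is a membrane protein that secretases cut one after another, and one order of cuts releases amyloid-beta. Its relatives Aplp1 and Aplp2 have the same build but lack the amyloid-beta stretch. The short cytoplasmic tail of all 3 carries an NPTY motif, to which the phosphotyrosine-binding domains of Fe65 proteins (Apbb1, Apbb2) and of Mint or X11 proteins (Apba1, Apba2) bind. Itm2b encodes BRI2, a membrane protein that binds the amyloid precursor protein, and mutations in its human counterpart cause familial British and Danish dementia by making an amyloid peptide. Itm2c encodes the related BRI3. The prion protein is a surface protein of neurons that binds amyloid-beta oligomers.

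None of the 10 genes differed between the groups at the threshold, and each gene had overlapping values in irisin mice and GFP mice. With all 10 mice the largest difference in size was that of Prnp, at −2.65% in irisin against GFP mice with a 95% interval of −8.53% to 3.62%. It was smaller when GFP mouse 1 was left out, with a log2 difference of −0.011 in place of −0.039, and that of Aplp2 was then larger, at −0.052. App differed by 0.106%, with an interval of −5.41% to 5.95%. By limma, 0 of the 10 genes had an adjusted p under 0.05, beside 0 of 17556 genes tested (0%), and 0 of the 10 had an unadjusted p under 0.05, beside 788 genes tested (4.49%). Without GFP mouse 1 the latter count was 1 of the 10, Aplp2 (adjusted p = 0.983 by limma). In that setting 851 genes had an unadjusted p under 0.05 and 0 passed after adjustment. The share of genes tested is not given for that setting, so the 1 of 10 cannot be read against it. The groups overlapped in 10 of 10, and among all genes tested 141 (0.803%) had groups that did not overlap. Log2 differences, taken as irisin minus GFP after adding 1 to each value, were above 0 for 3 of the genes and below 0 for 7, with a median of −0.015. Over all genes tested 8868 were above 0 and 8688 below, with a median of 0.00099. In bulk tissue, fewer cells of a type and less RNA per cell cannot be told apart.

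**Figure D1:**
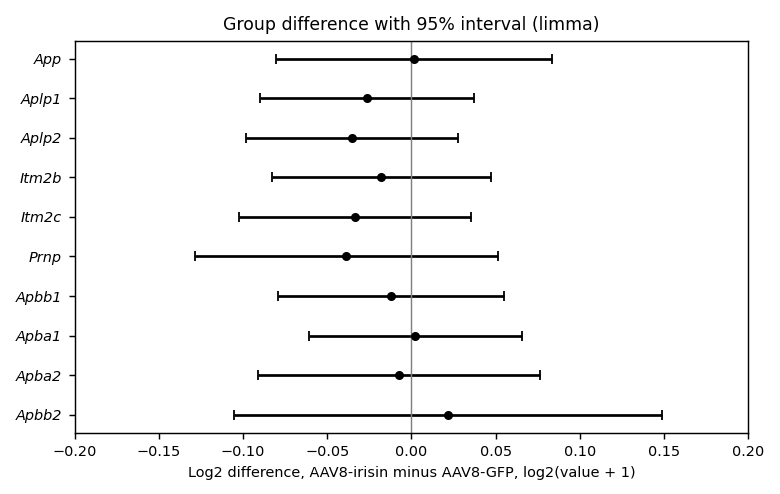
Log2 difference (irisin minus GFP) of each gene with its 95% interval by limma, over 5 mice a group; the vertical line marks 0. All 10 intervals include 0, and the widest is that of Apbb2, from −0.11 to 0.15.

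Estimated depth ranged from 3.07e+07 reads in GFP mouse 5 to 4.15e+07 in GFP mouse 3. After the scaling by the authors, library totals were 3.53e+07 to 3.66e+07, with 22434 to 23035 genes above 0. Neuronal markers such as Snap25 and the dentate granule cell gene Prox1 were present in all libraries, with summed neuronal markers of 196741 to 209000 normalised counts in GFP mice and 200384 to 204805 in irisin mice. Of the other lists of cell type markers, all 6 oligodendrocyte genes and all 5 tested choroid plexus genes had log2 differences above 0, and all 6 microglial and all 5 red-cell genes had log2 differences below 0. The summed levels overlapped between the groups in each list. They were 101509 to 135382 and 117583 to 140476 for oligodendrocytes, 13577 to 18344 and 13059 to 16267 for microglia, 720 to 974 and 912 to 2617 for choroid plexus, and 1586 to 4502 and 1669 to 3211 for red cells, GFP mice first. The others were 30703 to 34194 and 31199 to 32890.3 for hippocampal principal cells, 128043 to 166477 and 136587 to 143713 for astrocytes, 5059 to 6792 and 4771 to 5945 for endothelial cells, 2221 to 3068 and 2307 to 3279 for meninges, and 368 to 461 and 373 to 541 for other brain regions. By mean level Kl was the largest part of the choroid plexus sum, at 650 to 879 and 788 to 920. Ttr ran from 10.1 to 48.3 and from 12.3 to 1528, GFP mice first. None of the listed markers was at 0 in all libraries and none passed the test. Their part in the values below was not tested.

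App, the gene of the precursor itself (ENSMUSG00000022892.11, chromosome 16, 84949685 to 85173766, minus strand, mm10), ranked 10th of all genes by normalised count. In GFP mice 1 to 5 it had 122311, 127772, 129301, 130617 and 131777 normalised counts. In irisin mice 1 to 5 it had 138237, 134390.4, 125318, 123732 and 121382. Irisin mice thus held both the highest and the lowest values, with mice 1 and 2 above every GFP mouse and mouse 5 below every one. Means were 128356 ± 3694 in GFP mice and 128612 ± 7297 in irisin mice (SD, n = 5 each), a log2 difference of 0.0015 (standard error 0.038; limma, adjusted p = 0.996). The sign was the opposite one with quantile normalisation (−0.032), with array weights (−0.0069), and when GFP mouse 1 (−0.016), irisin mouse 1 (−0.025) or irisin mouse 2 (−0.015) was left out. An annotated antisense RNA on the other strand shares 113 bases, 0.870%, of the joined exons of App. The transgene for the precursor protein resembles App in sequence, and whether its reads entered these values was not tested.

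Aplp1, the family member made mainly by neurons (chromosome 7, 30434982 to 30445535, minus strand), had 46383, 43103, 43317, 44242 and 43061 normalised counts in GFP mice 1 to 5. The irisin mice had 42154, 42981, 44921, 43329 and 42686. GFP mouse 1 was the highest, and 3 of 5 irisin mice lay below the lowest GFP mouse. The log2 difference was −0.026 (standard error 0.030; limma, adjusted p = 0.949), 0.0073 with quantile normalisation and −0.0075 without GFP mouse 1. Aplp2, the widely expressed relative (chromosome 9, 31149557 to 31211815, minus strand), had 16279.7, 17512, 16787, 17643 and 17153 normalised counts in GFP mice. It had 16823, 17037, 16470.2, 16438 and 16514 in irisin mice, all within the range of the GFP mice. Its log2 difference was −0.035 (standard error 0.029) and its 95% interval ran from −0.098 to 0.027 (limma, adjusted p = 0.942). Aplp2 had the smallest unadjusted p of the 10 genes, 0.247 by limma. Without GFP mouse 1 its log2 difference was −0.052 (unadjusted p = 0.0453, adjusted p = 0.983 by limma).

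**Figure D2:**
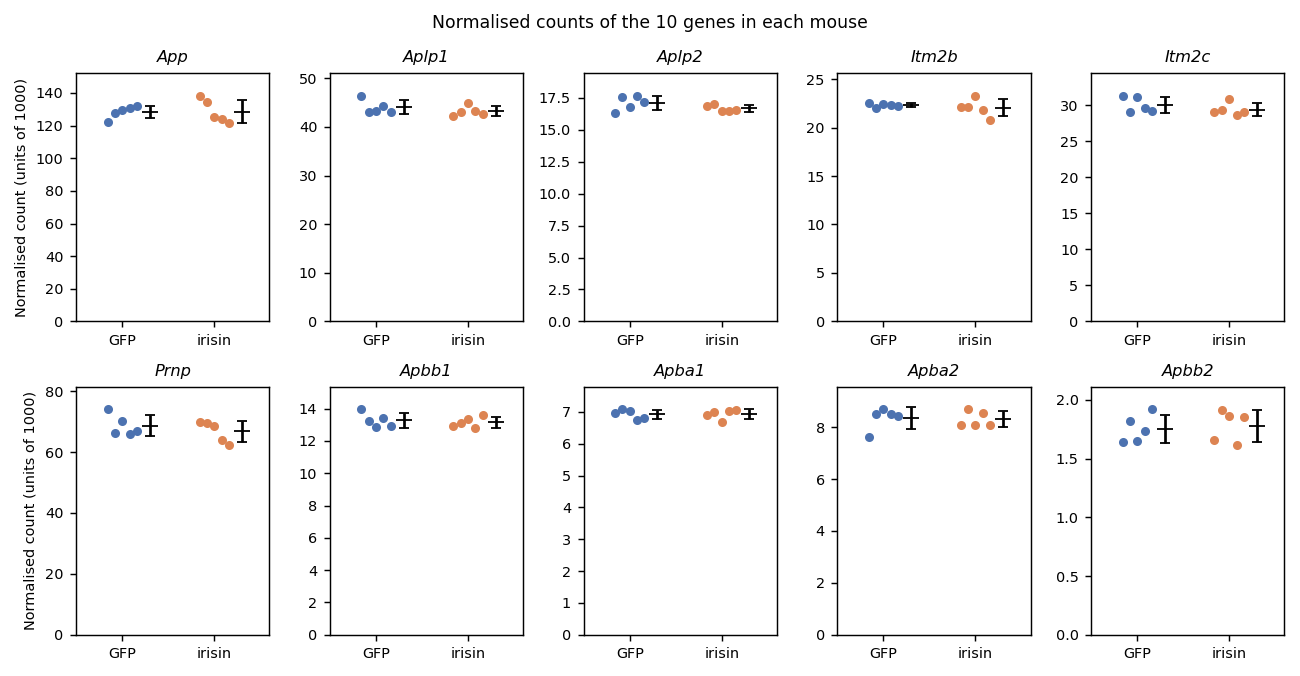
Normalised counts, in units of 1000 from 0, of the 10 genes in each GFP (blue) and irisin (orange) mouse, in the order of mouse 1 to 5; black marks are the mean and SD (n = 5 a group). The groups overlap in every panel, and the irisin mice of App spread from 121382 to 138237.

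The stretches of coding sequence that close the 3 family members show the feature that the adaptors read. Each is the last 20 codons and the stop codon of the principal transcript in GENCODE M21 (mm10), 5′ to 3′ on the coding strand, with the codons of the NPTY motif in capitals. The stretches lie on chromosome 16 at 84955331 to 84955393 for App, on chromosome 7 at 30435293 to 30435355 for Aplp1 and on chromosome 9 at 31150871 to 31150933 for Aplp2, all on the minus strand and each within 1 exon.
App: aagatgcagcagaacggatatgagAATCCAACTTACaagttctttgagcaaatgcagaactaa
Aplp1: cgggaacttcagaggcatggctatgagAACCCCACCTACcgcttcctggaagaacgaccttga
Aplp2: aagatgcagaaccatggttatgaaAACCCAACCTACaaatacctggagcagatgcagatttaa
The motif was followed by 24 coding bases in App and Aplp2 and by 21 in Aplp1. Aligned on the motif without gaps, App and Aplp2 had the same base at 45 of 60 positions (75.0%), App and Aplp1 at 33 of 57 (57.9%), and Aplp1 and Aplp2 at 36 of 57 (63.2%).

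Levels can be compared between genes only per length. Per kb of all annotated exons joined, Prnp was the highest of the 10 at 28921 ± 1469 normalised counts per kb (SD, n = 10), followed by Aplp1 at 14457 ± 412, Itm2c at 11935 ± 403, App at 9886 ± 420 and Itm2b at 8115 ± 225. Apbb1 had 2999 ± 85.8 normalised counts per kb, Aplp2 2871 ± 79.2, Apba2 2179 ± 88.9, Apba1 1007 ± 20.5 and Apbb2 161 (147 to 175). The ranges over the 10 mice overlapped for 1 of the 9 neighbouring pairs, Apbb1 with Aplp2. By this measure Prnp ranked 19th, App 69th and Apbb2 7906th of 17295 tested genes with a length. The place of App depends on the length used, since its annotated exons join to 13.0 kb while its principal transcript has 3.18 kb. Whether reads of the transgenes entered the values of App and Prnp was not tested, for these levels or for the shares below. Per kb of principal transcripts App was the highest at 40455 ± 1717 normalised counts per kb, above Prnp (31026 ± 1576) and Aplp1 (18616 ± 530), and the ranges of Itm2c and Itm2b overlapped too.

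**Figure D3:**
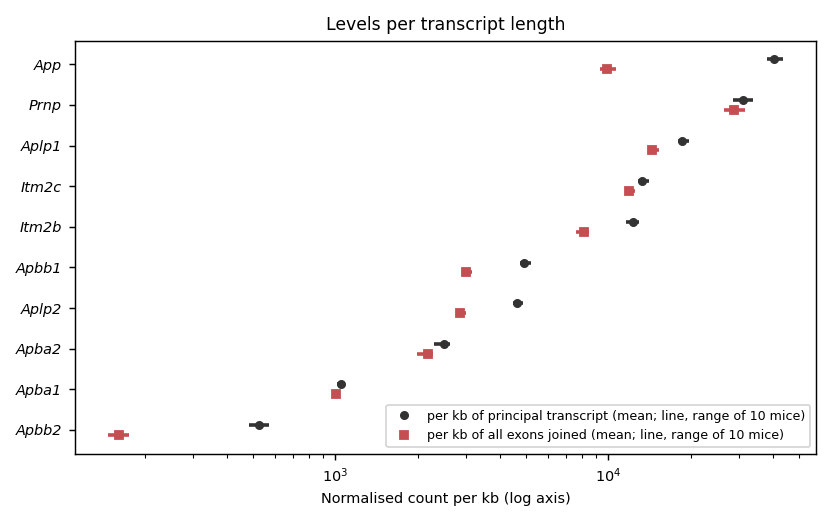
Normalised count per kb (log axis) of each gene over the 10 mice, per kb of the principal transcript (black circles) and of all exons joined (red squares); lines span the lowest and highest mouse. App moves from 40455 to 9886 with the length, and Prnp from 31026 to 28921.

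Within the family, App made up 36.1% ± 1.13 of the summed level per kb of joined exons in GFP mice and 36.6% ± 1.52 in irisin mice (SD, n = 5 each). Aplp1 made up 53.3% ± 1.42 and 53.0% ± 1.54, and Aplp2 10.6% ± 0.361 and 10.5% ± 0.159. Per kb of principal transcripts the share of App was 63.2% ± 1.12 and 63.7% ± 1.48, GFP mice first. These shares differed between the groups by less than the spread between mice.

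Of the BRI genes, Itm2b had the smallest spread of the 10 genes among GFP mice, relative to its mean. Itm2b (chromosome 14, 73362226 to 73385289, minus strand) had 22541, 21976, 22379, 22352 and 22253 normalised counts in GFP mice 1 to 5, an SD of 208 about a mean of 22300.1. In irisin mice it had 22122, 22155, 23272, 21832 and 20819, an SD of 876. Mouse 3 was above every GFP mouse, and mice 4 and 5 were below every one. The log2 difference was −0.018 (standard error 0.030; limma, adjusted p = 0.961). It was above 0 without irisin mouse 5 (0.0025) and without mice 4 and 5 of that group (0.014). The difference in spread between the groups was not tested.

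Itm2c (chromosome 1, 85894281 to 85908675, plus strand) had 31311, 29009, 31172, 29687 and 29203 normalised counts in GFP mice and 29085, 29286, 30889, 28639 and 29009 in irisin mice. Irisin mouse 3 was the highest of its group for Itm2c as for Itm2b. The log2 difference was −0.033 (standard error 0.032; limma, adjusted p = 0.942), −0.019 without GFP mouse 1 and −0.052 without irisin mouse 3. Itm2b made up 40.3% ± 0.697 of the pair per kb of joined exons in GFP mice and 40.6% ± 0.601 in irisin mice (SD, n = 5 each). Per kb of principal transcripts its share was 47.9% ± 0.723 and 48.2% ± 0.624, GFP mice first.

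Prnp (ENSMUSG00000079037.9, chromosome 2, 131909928 to 131938429, plus strand) ranked 21st of all genes by normalised count. Its own promoter is shown because a copy of the mouse prion promoter drives the transgenes. The 250 bases before the RefSeq start of Prnp (GRCm38.p6, chr2:131909678-131909927, plus strand) are printed 5′ to 3′, with each GC box (GGGCGG on either strand) in capitals.
Prnp: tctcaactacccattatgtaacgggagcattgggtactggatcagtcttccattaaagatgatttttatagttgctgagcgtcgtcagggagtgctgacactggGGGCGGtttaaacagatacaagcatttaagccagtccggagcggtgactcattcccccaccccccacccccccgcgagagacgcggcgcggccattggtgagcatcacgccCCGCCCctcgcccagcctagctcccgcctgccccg
This window held 2 GC boxes, 2 matches to CCAAT and 1 to TATAAA on either strand, 17 CpG sites and 58.8% G or C, and no match overlapped another. Of 32851 such windows in RefSeq, 32.7% held a GC box, 33.9% a CCAAT and 12.4% a TATAAA, and the medians were 6 CpG sites and 52.4% G or C. The window before App held 1 GC box, 0 matches to CCAAT, 0 to TATAAA and 70.8% G or C. A match is a description of the letters and not a measured binding site.

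Prnp had 74132, 66186, 70196, 65824 and 66994 normalised counts in GFP mice 1 to 5. In irisin mice it had 69869, 69693, 68515, 63866 and 62337. GFP mouse 1 was the highest of all 10, and irisin mice 4 and 5 were below every GFP mouse. The log2 difference was −0.039 (standard error 0.042; limma, adjusted p = 0.946), −0.011 without GFP mouse 1, −0.014 without irisin mouse 5 and 0.016 without irisin mice 4 and 5. A readthrough locus named Prn shares 145 bases, 6.19%, of the joined exons of Prnp on the same strand, which leaves part of the value uncertain. Transgenes of this kind can carry untranslated Prnp sequence, and whether their reads entered the value was not tested.

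The ratio of App to Prnp within a library is free of the scaling between libraries. It was 1.65, 1.93, 1.84, 1.98 and 1.97 in GFP mice 1 to 5 and 1.98, 1.93, 1.83, 1.94 and 1.95 in irisin mice 1 to 5. Thus 9 libraries lay between 1.83 and 1.98, and GFP mouse 1, with the highest Prnp, lay below them. The log2 ratio was 0.903 ± 0.109 in GFP mice and 0.944 ± 0.0429 in irisin mice (SD, n = 5 each), a difference of 0.040 (exact two-sided permutation p = 0.619, where the smallest possible is 0.00794). Without GFP mouse 1 the difference was −0.0051 (exact permutation p = 0.833, and 0.325 to 0.833 over all 10 omissions of 1 mouse).

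**Figure D4:**
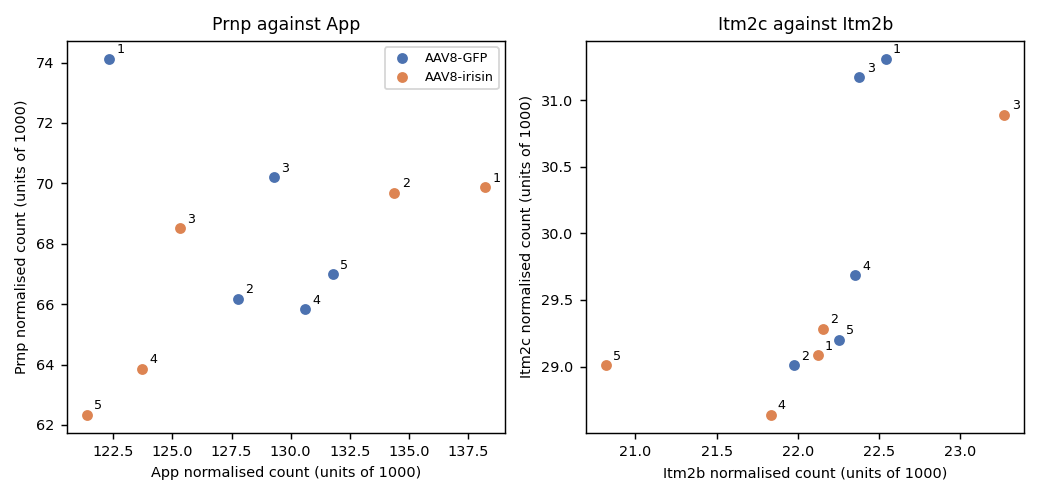
Normalised counts, in units of 1000, of Prnp against App (left) and of Itm2c against Itm2b (right), one point per mouse with its number (GFP blue, irisin orange; axes do not start at 0). GFP mouse 1 stands at 122311 for App and 74132 for Prnp, and Itm2b and Itm2c order the mice in nearly the same way (Spearman's rho 0.915).

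The Fe65 genes stood far apart in level. Apbb1 (Fe65, chromosome 7, 105558483 to 105581653, minus strand), a nuclear and cytoplasmic partner of the tail, had 13966, 13259.6, 12852, 13394 and 12904 normalised counts in GFP mice 1 to 5. It had 12949, 13108, 13353, 12773 and 13618 in irisin mice, where mouse 4 was the lowest of all 10. Its log2 difference was −0.012 (standard error 0.031; limma, adjusted p = 0.970), and 0.0062 without GFP mouse 1. Apbb2 (Fe65-like, chromosome 5, 66298703 to 66618784, minus strand) had 1642, 1819, 1653, 1733 and 1922 normalised counts in GFP mice. It had 1657, 1914, 1867, 1615 and 1853 in irisin mice. Its values spread the most of the 10 genes, and both groups had mice near the lowest and the highest value. Its log2 difference was 0.022 (standard error 0.059) and its 95% interval ran from −0.11 to 0.15 (limma, adjusted p = 0.971). It fell below 0 without GFP mouse 1 (−0.0015) or irisin mouse 2 (−0.0051). Per kb of joined exons, Apbb2 made up 5.05% ± 0.422 of the pair in GFP mice and 5.16% ± 0.296 in irisin mice (SD, n = 5 each). The share depends on the length used, and per kb of principal transcripts it was 9.57% ± 0.760 and 9.76% ± 0.533, GFP mice first.

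Of the Mint genes, whose proteins bind the tail and the machinery of synaptic vesicle release, Apba1 (chromosome 19, 23758887 to 23949596, plus strand) had the least spread of the 10 genes. It had 6955, 7089.9, 7040.5, 6748 and 6812 normalised counts in GFP mice 1 to 5 and 6908, 7009, 6688, 7032 and 7066 in irisin mice. The highest library exceeded the lowest by a ratio of 1.06. Its log2 difference was 0.0024 (standard error 0.029) and its 95% interval ran from −0.061 to 0.065 (limma, adjusted p = 0.994). The sign turned in 7 of 21 alternative settings, quantile normalisation among them (−0.00066). An antisense RNA on the other strand shares 289 bases, 4.20%, of its joined exons. Apba2 (chromosome 7, 64501706 to 64753878, plus strand) had 7641, 8521, 8686, 8498 and 8426 normalised counts in GFP mice, where mouse 1 lay below the other 4. It had 8097, 8698, 8081, 8566 and 8092 in irisin mice, with a log2 difference of −0.0076 (standard error 0.039; limma, adjusted p = 0.984). The sign turned without GFP mouse 3 (0.0068) and without irisin mouse 1 (0.0015), 3 (0.0022) or 5 (0.0017). Apba2 made up 68.4% ± 1.18 of the pair per kb of joined exons in GFP mice and 68.3% ± 0.694 in irisin mice (SD, n = 5 each). Per kb of principal transcripts its share was 70.6% ± 1.14 and 70.5% ± 0.667, GFP mice first.

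The residual SD of the 10 genes between mice of a group had a median of 0.045 on the log2 scale, beside 0.12 over all genes tested. The genes tested were not matched to the 10 in level, so these places do not show unusual steadiness. Apba1 had the lowest at 0.031, below which lay 1.38% of genes tested, and Apbb2 the highest at 0.10, at percentile 41.1. App had 0.065 and Prnp 0.075, at percentiles 16.5 and 22.9. By normalised count the 10 genes ranked between 10th (App) and 4636th (Apbb2) of all genes. GFP mouse 1 had the highest value of all 10 mice for 4 genes (Aplp1, Itm2c, Prnp and Apbb1) and the lowest for 2 (Aplp2 and Apba2). Irisin mice 4 and 5 each had the lowest value for 3 genes and the highest for 0. Over all genes tested, the SD of log2 values about the mean of the other libraries was 0.302 in GFP mouse 1, and 0.256 to 0.289 in the other 9.

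**Figure D5:**
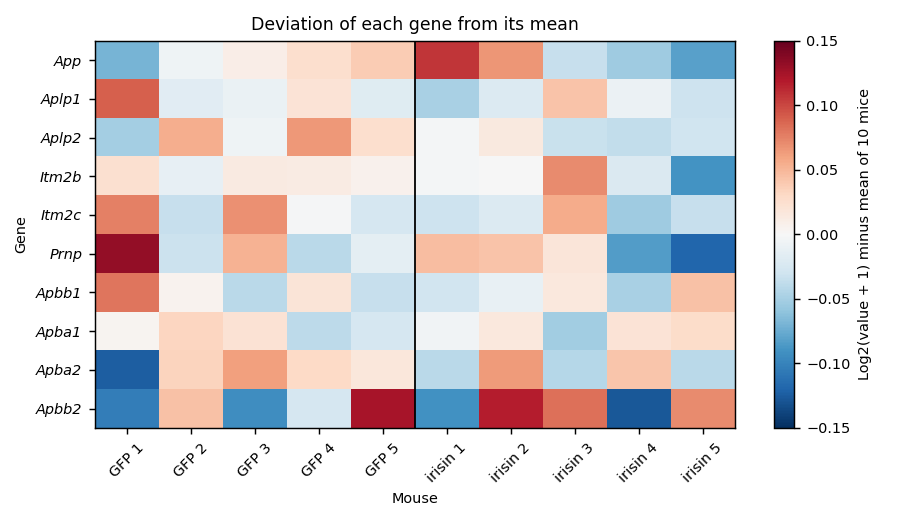
Log2(value + 1) of each gene minus its mean over the 10 mice, with GFP mice left and irisin mice right of the black line; red is above and blue below the mean. Prnp stands at 0.13 in GFP mouse 1 and at −0.12 in irisin mouse 5.

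The 45 pairs of the 10 genes were compared across the 10 libraries. By Pearson's r no pair passed after adjustment over the 45 (0 pairs, permutation tests, smallest adjusted p = 0.226), and 20 pairs had r above 0. By Spearman's rho 1 pair passed, Itm2b with Itm2c, with rho = 0.915 (permutation p = 0.00058, adjusted p = 0.0261) and r = 0.65 (permutation p = 0.0248, adjusted p = 0.226). Without irisin mice 3 and 5, the libraries farthest from the median of Itm2b, r was 0.86, and with each group centred on its own mean it was 0.62. With 1 library left out at a time rho stayed between 0.883 and 0.933, but the call after adjustment ended without any of GFP mice 1, 3, 4 and 5 and irisin mice 1, 2 and 4. Aplp1 with Itm2c had r = 0.74 (permutation p = 0.0107, adjusted p = 0.226) and rho = 0.54 (permutation p = 0.114, adjusted p = 0.641), and r was 0.32 without GFP mouse 1 and irisin mouse 3. App and Prnp had r = 0.28 (permutation p = 0.435, adjusted p = 0.755) and rho = 0.32 (permutation p = 0.367, adjusted p = 0.750), and r was −0.14 without irisin mice 1 and 5. The pooled value covers groups that differed in order. The 5 irisin mice ranked in the same order for App and for Prnp, whereas among GFP mice the mouse lowest in App was the highest in Prnp. Groups of 5 were too small for a correlation within a group, so this difference was not tested. All points share the scaling between libraries.

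Among 6631 named genes with a mean of at least 1000 normalised counts, those whose log2 ratio to App varied least over the 10 libraries were Serp1 (SD 0.026), a protein of the endoplasmic reticulum membrane, Oxct1 (0.030), an enzyme of ketone body use, and Ube2v2 (0.033), a ubiquitin-conjugating enzyme variant. App itself had an SD of 0.061 and the median SD of such ratios was 0.098. For Prnp they were Lgmn (0.024), the lysosomal protease legumain, the receptor gene Gpr162 (0.026) and Msra (0.030), a methionine sulfoxide reductase, beside an SD of 0.073 for Prnp and a median of 0.105. These genes were picked as the extremes of many, so the values are descriptions.

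A list of 6 genes outside the set held relatives and also Apbb1ip, which is named as a partner of Apbb1 and is not a relative. Of the 6, 5 were tested and all 5 had lower means in irisin mice. Their median log2 difference was −0.080 beside 0.00099 over all genes tested, where the median size without sign was 0.057. The standard errors of the 5 differences ran from 0.034 (Sprn) to 0.12 (Apba3), and a joint shift was not tested. Sprn, the gene of the prion-like protein Shadoo, had 7395 ± 318 and 7308 ± 126 normalised counts. Apbb3, the third Fe65 gene, had 1399 ± 120 and 1321 ± 74.4, and Apbb1ip 275 ± 25.4 and 258 ± 25.0 (SD, n = 5 each, GFP mice first). None of the 5 had an unadjusted p under 0.05 by limma, and Prnd, the prion-like gene next to Prnp, was below the level tested.

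Among 25 adaptors and trafficking genes of the App tail 15 had log2 differences above 0 and 10 below, with a median of 0.0028. Lrp1, an endocytic receptor that binds the precursor protein through adaptors, had 24344 ± 3151 normalised counts in GFP mice and 21856 ± 1121 in irisin mice (log2 difference −0.15, standard error 0.068), and 4 of 5 irisin mice lay below the lowest GFP mouse. The reelin adaptor Dab1 had a log2 difference of 0.070, and those of the most abundant genes of the list, Rtn3 and the sorting receptor Sort1, were 0.0028 and 0.0084. Of 19 membrane partners of the precursor and the prion protein 9 had log2 differences above 0 and 10 below (median −0.0020). Dpp10, a potassium channel subunit, had 1650 ± 119 and 1944 ± 231 normalised counts (log2 difference 0.23, standard error 0.076), with 3 of 5 irisin mice above every GFP mouse. The Nogo receptor gene Rtn4r had 2706 ± 127 and 2511 ± 170 (log2 difference −0.11, standard error 0.050). Gabbr1, a GABA-B receptor subunit whose protein binds the shed precursor, and the adhesion gene Cntn1 had log2 differences of 0.0077 and 0.065. With adjusted p of 0.942 or higher by limma, none of the genes named from these 2 lists passed. An unadjusted p under 0.05 was found for 1 of the 25 genes (Lrp1) and 2 of the 19 (Dpp10 and Rtn4r), beside 4.49% of all genes tested.

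A list of 7 genes was drawn up around the maturation and cleavage of BRI proteins, but not all are known to do either. Bri3 among them is not the gene of the BRI3 protein, which is Itm2c. Of the 7 genes, 5 had log2 differences above 0 and 2 below (median 0.010). Furin, the convertase that trims BRI2, had 1668 ± 58.9 and 1600 ± 67.5 normalised counts, and the convertase gene Pcsk7 846 ± 77.5 and 909 ± 74.0. Among 12 secretase genes, 2 of which are also on the BRI list, 7 had log2 differences above 0 and 5 below (median 0.0048). The beta-secretase gene Bace1 had 4383 ± 76.1 and 4429 ± 159, and the alpha-secretase gene Adam10 3238 ± 242 and 3321 ± 74.1. Aph1b, a subunit of gamma-secretase, had 1295 ± 81.7 and 1383 ± 21.5 normalised counts (log2 difference 0.098, standard error 0.047), with 4 of 5 irisin mice above every GFP mouse, and the metalloprotease gene Adam9 had a log2 difference of 0.087. None of the genes of either list passed, with adjusted p of 0.942 or higher by limma.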

How the data were processed

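The deposited table holds, by its name, the authors' DESeq2 normalised counts, used here as a signal that is never negative, for 31510 genes and 10 libraries. Per the submitters' processing notes bcl2fastq 2.17, DESeq2 and mm10 were used. The aligner, counting tool, strand setting and gene models are not given in the sources used here. Low values were not whole multiples of 1 step (49.0% to 71.5% within 0.1 reads), so whole reads were not recovered and no count model was used. Library depth in reads is therefore an estimate, 3.07e+07 to 4.15e+07.

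Groups follow the titles, which name separate mice. The 17556 genes that reached 10 in 5 or more libraries were tested as log2(value + 1) with limma 3.58.1 in R 4.3.3 (trend, two-sided, Benjamini-Hochberg over all genes tested, threshold 0.05), a fit tested on simulated data. This scale understates changes of low values. The members and lists were chosen with earlier results of these data known. All 10 members were named, with the 2 most abundant genes and the 2 of smallest p of each list, and 3 genes most like App and Prnp. Relations used 100000 resamples. Lengths and positions are from GENCODE M21 (mm10, 97.3% of symbols matched), the promoter from RefSeq (GRCm38.p6). The length of the principal transcript was chosen after seeing the data.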

Additional observations from a re-analysis of the deposited data

Results flagged for a closer look

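In 2 of 22 groups of 5 values checked, 1 mouse lay farther from the others than Dixon's 95% value allows, and chance alone picks about 1 such group in 20. Itm2c had 30889 normalised counts in irisin mouse 3, above the other 4 mice of its group at 28639 to 29286. Apba2 had 7641 normalised counts in GFP mouse 1, below the other 4 at 8426 to 8686. The log2 differences without these mice were −0.052 for Itm2c and −0.039 for Apba2.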

How the results depend on the processing

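For the 10 genes 187 of 210 values under alternative settings kept the direction, 23 turned it, and none passed (adjusted p from 0.822 to 1). Aplp2 and Itm2c kept their direction in all 21 settings each. Quantile normalisation turned App (−0.032), Aplp1 (0.0073) and Apba1 (−0.00066), and array quality weights turned App (−0.0069). Leaving out irisin mice 4 and 5 turned Itm2b (0.014), Prnp (0.016) and Apba1 (−0.013). With 1 mouse left out at a time, ranges were −0.025 to 0.022 for App, −0.038 to 0.0025 for Itm2b, −0.025 to 0.0062 for Apbb1, −0.0071 to 0.016 for Apba1, −0.039 to 0.0068 for Apba2, −0.0051 to 0.056 for Apbb2, −0.055 to −0.011 for Prnp, −0.040 to −0.0075 for Aplp1, −0.052 to −0.023 for Aplp2, −0.052 to −0.019 for Itm2c and −0.0051 to 0.062 for the log2 ratio of App to Prnp. The pairs passing by rank ranged from 0 to 1. The cause was not tested.

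Without a filter on low values 1 gene passed among 26538, the predicted gene Gm49383, named after its value was seen, which is listed at 0 in all irisin libraries. There 1256 genes had an unadjusted p under 0.05. The labels do not say that mouse numbers pair the mice. Deviations of GFP and irisin mice with the same number had correlations from −0.0891 to 0.0297, which does not settle whether mice were paired. With the mouse number as a replicate block 0 genes passed and 862 had an unadjusted p under 0.05, and the log2 difference of App was 0.0015. Other lengths moved the levels by construction: per kb of the longest transcript they were 15732 for App, 17645 for Aplp1, 4641 for Aplp2, 12344 for Itm2b, 13331 for Itm2c, 31026 for Prnp, 4593 for Apbb1, 1048 for Apba1, 2508 for Apba2 and 267 for Apbb2. Per kb of the principal transcript they were 40455 for App, 18616 for Aplp1, 4914 for Apbb1 and 525.7 for Apbb2, and the same as per kb of the longest transcript for the other 6. Each comparison rests on 5 mice a group, and the narrowest 95% interval of a log2 difference, that of Aplp2, spans −0.098 to 0.027.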
